A study of Mus musculus with 4 samples.

Results

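The cytosolic ribosome is described here through the mRNAs of its proteins in mouse bone marrow-derived macrophages, profiled as single cells. A gene was taken where its symbol starts with Rpl or Rps and a number, or is Rplp0, Rplp1, Rplp2 or Rpsa, and pseudogene symbols containing -ps (7 genes) and the Rps6k kinases (8 genes) were left out. This gave 85 of the 14432 genes in the count table. By name, 77 of the 85 belong to the standard set of the ribosome, 46 to the large 60S subunit and 31 to the small 40S subunit. The other 8 are 7 paralogs (Rpl3l, Rpl7l1, Rpl22l1, Rpl36al, Rpl39l, Rps27l and the retrogene Rps27rt) and Rps19bp1, which encodes a protein that binds the ribosomal protein RPS19 and is not itself one. Fau and Rack1 also encode ribosomal proteins, but their symbols keep them outside the set, and their values are given near the end.

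The study compared macrophages labelled Trpv4-null, which lack the calcium channel TRPV4 by their label, with wild-type macrophages (C57BL/6J in the sample titles and C57BL/6 in the growth protocol), each with and without bacterial lipopolysaccharide (LPS). The 4 groups were Trpv4-null with LPS, Trpv4-null untreated, wild type with LPS and wild type untreated. All cells came from marrow of mice aged 8 to 12 weeks and were grown in the macrophage growth factor M-CSF at 50 ng/mL, and LPS was given at 100 ng/mL for 24 h. Each group was 1 library. The design text speaks of 3 mice per genotype and 12 samples, but no mouse is named for any cell, so differences between groups cannot be set against the spread of replicates and none was tested. Levels are counts of UMIs (unique molecular identifiers), where each stands for an mRNA molecule that was captured once, and CPM is that count per 1000000 UMIs of the library. All intervals below are 95% intervals for counting error alone.

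Ribosomal proteins are made in nearly equal amounts, and their mRNAs are among the most abundant of a growing cell. Most of these mRNAs begin with a C followed by a run of C and U, the 5′ terminal oligopyrimidine (TOP) motif, through which the kinase mTOR and the RNA-binding protein LARP1 set how strongly they are translated and how stable they are. LPS is sensed by the receptor TLR4 and turns macrophages to the production of inflammatory proteins.

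The pyrimidine run at the start of transcription is the sequence feature that these genes are known for, and 4 standard genes show it here, from 25 bases before to 25 bases from the start listed by RefSeq (GRCm38.p6). The strand shown is that of the gene, read 5′ to 3′, and capitals mark unbroken runs of at least 8 C or T. The windows are chr14:18270962-18271011 (minus strand) for Rpl15, chr7:109519170-109519219 (plus strand) for Rpl27a, chr17:27635220-27635269 (minus strand) for Rps10 and chr17:33955641-33955690 (minus strand) for Rps18.
Rpl15: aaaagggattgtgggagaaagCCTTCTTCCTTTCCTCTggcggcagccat
Rpl27a: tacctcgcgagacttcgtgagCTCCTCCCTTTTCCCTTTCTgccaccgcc
Rps10: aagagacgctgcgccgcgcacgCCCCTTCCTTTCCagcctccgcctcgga
Rps18: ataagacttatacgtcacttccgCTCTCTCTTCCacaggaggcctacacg

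The next 6 windows are shown because the results below turn on these genes: Rps27 with its paralogs Rps27rt and Rps27l, the paralogs Rpl22l1 and Rpl7l1, and Rpl24, a standard 60S gene whose CPM differed little with LPS. They lie at chr3:90213624-90213673 (minus strand) for Rps27, chr9:114982715-114982764 (minus strand) for Rps27rt, chr9:66946061-66946110 (plus strand) for Rps27l at the first of its listed starts, chr3:28805483-28805532 (plus strand) for Rpl22l1, chr17:46782632-46782681 (minus strand) for Rpl7l1 and chr16:55966250-55966299 (plus strand) for Rpl24.
Rps27: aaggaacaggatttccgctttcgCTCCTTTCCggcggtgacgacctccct
Rps27rt: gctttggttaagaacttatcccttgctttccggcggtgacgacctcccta
Rps27l: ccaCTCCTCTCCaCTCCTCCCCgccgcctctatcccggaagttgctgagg
Rpl22l1: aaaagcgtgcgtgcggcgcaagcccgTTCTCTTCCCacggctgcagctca
Rpl7l1: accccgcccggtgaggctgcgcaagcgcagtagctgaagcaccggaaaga
Rpl24: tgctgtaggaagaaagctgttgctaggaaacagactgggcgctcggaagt

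Rps27 and Rps27rt share a stretch of 24 bases in these windows and Rps27 and Rps27l a stretch of 6, so the retrogene window carries part of the Rps27 sequence and the Rps27l window does not. RefSeq promoter windows of 300 bases were at hand for 65 of the 85 genes, 57 of them standard. A run of at least 8 C or T within 50 bases of the start, on the strand of the gene, was present in 48 of the 57 standard genes (84.2%) and in 37.0% of the 10623 other genes of the count table with a window. The same run on the opposite strand was present in 24.6% of the standard genes and in 40.2% of the others. The letters CTTTC, which can overlap such a run, stood within 50 bases of the start in 54.4% of the standard genes and in 12.5% of the others. CGGAAG, a core letter string of ETS-family binding motifs, was searched on both strands over the 300 bases and was present in 70.2% of the standard genes and 33.6% of the others. The E-box CACGTG was present in 10.5% of the standard genes and 11.5% of the others. Of the 8 paralogs and relatives, 5 held a pyrimidine run, and the windows of Rpl24, Rpl7l1 and Rps27rt printed above show none.

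The libraries held between 5485 and 8288 cells. The depth differed with treatment, with a median of 16041 UMIs per cell in Trpv4-null-labelled cells with LPS, 7893 in the same cells untreated, 16674 in wild-type cells with LPS and 5661 in wild-type cells untreated. Trpv4 itself, the targeted gene, had 9.62 CPM with LPS and 8.60 CPM untreated under the Trpv4-null label, and 2.07 CPM with LPS and 5.83 CPM untreated in wild type. Its level was thus not lower under the Trpv4-null label, so genotype is used here as a label only, and each difference between genotypes below is one between libraries labelled so. All 14 macrophage markers reached 20 CPM in every library. The neutrophil list had 6 genes in the count table, of which 3 (S100a8, S100a9 and Ngp) exceeded 20 CPM in at least 1 library and 1 (Ngp) was at 0 in 1, and its summed level was 25.9 and 48.3 CPM with LPS (Trpv4-null label, wild type) and 293 and 177 CPM untreated. The B cell list had 3, of which 1 (Ighm) exceeded 20 CPM and 1 (Ms4a1) was at 0 in at least 1 library, with summed levels of 2.70 and 3.83 CPM with LPS and 142 and 141 CPM untreated. The part of these other cells in the results was not tested over whole libraries, and values within the cluster that the authors named Macrophage are given below. No T cell, dendritic cell or stromal marker in the count table reached 20 CPM. The table held 1 of 6 T or NK cell markers, 6 of 6 dendritic cell markers and 1 of 5 stromal markers. It held none of the erythroid and mast cell or basophil markers listed, so for most of these lists little can be said. Between libraries, 74 barcode sequences were shared, carried by 148 cells.

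After LPS, ribosomal protein mRNAs made up a smaller share of the mRNA of a macrophage. In Trpv4-null-labelled cells they gave 8.00% of all UMIs with LPS, against 13.5% untreated, and in wild-type cells 8.20% with LPS, against 12.5% untreated. Per cell, the median share was 7.81% with LPS (quartiles 6.70% and 8.91%) against 13.2% untreated (11.6% and 14.8%) under the Trpv4-null label. In wild type it was 8.03% with LPS (6.84% and 9.12%) against 12.2% untreated (10.5% and 13.8%). In both pairs the upper quartile with LPS lay below the lower quartile without it. The ratio of the summed shares was 0.591 (0.5906 to 0.5918) in Trpv4-null-labelled cells and 0.656 (0.6557 to 0.6571) in wild-type cells, or -0.76 and -0.61 on the log2 scale.

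The share was lower with LPS, while the number of captured ribosomal protein molecules per cell was higher. The median cell held 1242 ribosomal protein UMIs with LPS against 1047 untreated under the Trpv4-null label, and 1322 with LPS against 690 untreated in wild type. Whether the larger number reflects more mRNA in a cell or deeper capture cannot be told apart. Other classes of mRNA that take up much of a library differed too. Fth1, the ferritin heavy chain, took 10.7% of UMIs with LPS and 3.60% untreated under the Trpv4-null label, and 11.1% with LPS and 3.94% untreated in wild type. Transcripts of the mitochondrial genome took 3.30% with LPS and 6.17% untreated under the Trpv4-null label, and 3.20% and 5.96% in wild type. The part of these changes in the share of ribosomal protein mRNAs was not tested.

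Both subunits showed the change in similar measure. The 40S genes gave 3.62% of UMIs with LPS against 6.20% untreated under the Trpv4-null label (log2 -0.77), and the 60S genes 4.28% against 7.22% (log2 -0.75). In wild type the 40S genes gave 3.74% with LPS against 5.83% untreated (log2 -0.64) and the 60S genes 4.34% against 6.54% (log2 -0.59). The 40S to 60S ratio of UMIs was 0.847 with LPS and 0.858 untreated under the Trpv4-null label, and 0.861 and 0.892 in wild type.

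The share was also read within bins of depth. Among cells of 10000 to 20000 UMIs, the median share was 7.78% with LPS (3664 cells) against 13.8% untreated (1284 cells) under the Trpv4-null label, and 7.95% with LPS (4181 cells) against 13.0% untreated (682 cells) in wild type. Among cells of 1000 to 5000 UMIs it was 6.28% with LPS against 11.5% untreated under the Trpv4-null label, and 5.81% against 11.2% in wild type. The share with LPS was the lower one in both bins and both pairs, and within each library the median share was higher in deeper bins. A bin does not equalise depth: between 10000 and 20000 UMIs the median cell had 15114.5 UMIs with LPS and 12272.5 untreated under the Trpv4-null label, and 15267 and 12037 in wild type.

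Gene by gene, 83 of the 85 could be compared, with at least 20 CPM and 30 UMIs in the higher library. With LPS, the log2 ratio lay below 0 for 81 of 83 genes under the Trpv4-null label, beside 70.7% of all 6340 genes compared, and for 78 of 83 in wild type, beside 71.2% of 6332 genes. Above 0 lay 2 genes under the Trpv4-null label, beside 29.3% of all genes, and 5 in wild type, beside 28.8%. The median log2 ratio of the set was -0.78 against -0.42 for all genes under the Trpv4-null label, and -0.64 against -0.39 in wild type. A level lower by 1.5-fold or more was seen for 68 of 83 genes (81.9%) under the Trpv4-null label, beside 40.4% of all genes, and for 45 of 83 (54.2%) in wild type, beside 37.9%. A level lower by 2-fold or more was seen for 11 of 83 (13.3%) beside 21.3% of all genes under the Trpv4-null label, and for 7 of 83 (8.43%) beside 17.7% in wild type. Which of these shares was the larger depended on the setting, since with totals without the ribosomal protein genes the share under the Trpv4-null label was 30.1% of the set beside 25.02% of all genes. No gene of the set was higher by 1.5-fold or more, where 11.9% of all genes were under the Trpv4-null label and 11.3% in wild type, nor by 2-fold, where 7.3% and 6.9% were. The quartiles of the log2 ratio were -0.93 and -0.65 under the Trpv4-null label and -0.79 and -0.43 in wild type, so few genes lay far from the set's median. The log2 ratios of the 83 genes under the 2 labels, which share no library, had a Pearson correlation of 0.907, a description over genes that are not independent of each other, beside 0.983 over all 6201 genes, and 80 (96.4%) lay on the same side of 0, beside 95.2% of all.

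**Figure D1:**
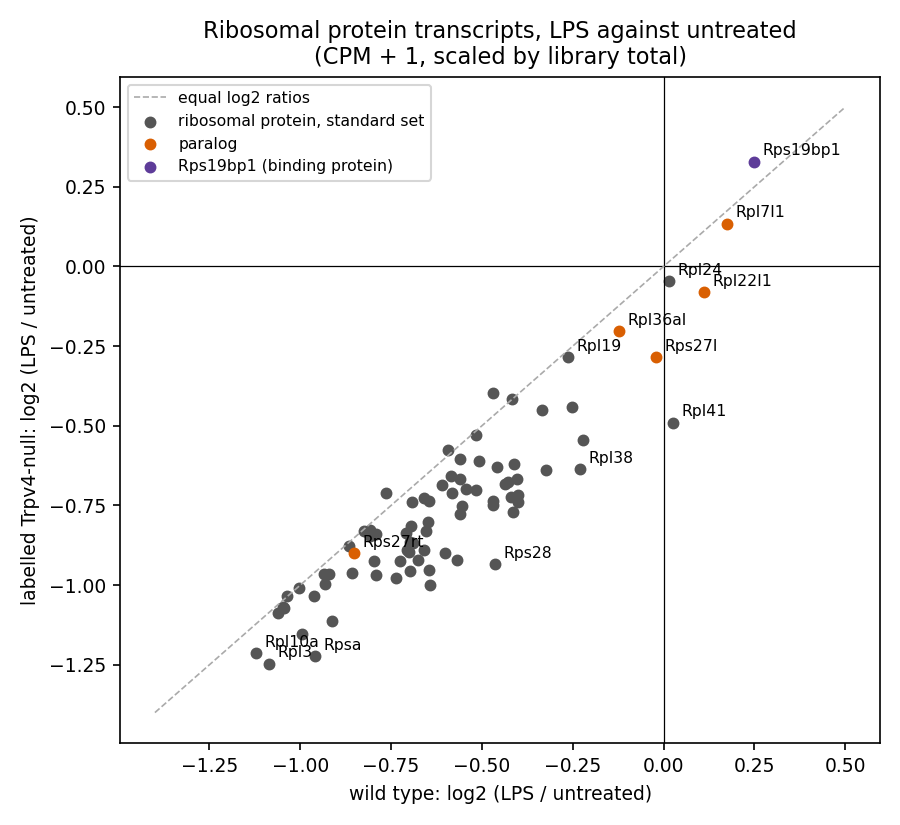
Log2 ratio of LPS-treated over untreated cells (CPM plus 1) for each of the 83 ribosomal protein genes compared, Trpv4-null-labelled cells on the vertical axis and wild-type cells on the horizontal axis, 1 library per group. Points lie close to a line, from Rpl10a and Rpl3 at the low end to Rps19bp1 and Rpl7l1 above 0, and 77 of the 83 had the lower ratio under the Trpv4-null label.

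These counts depend on how the libraries are scaled. With median-of-ratios size factors in place of library totals, which moved all log2 ratios up by 0.61 under the Trpv4-null label and 0.53 in wild type, 67 of 83 genes (80.7%) and 53 of 83 (63.9%) lay below 0, beside 36.5% and 38.6% of all genes, and none was lower by 2-fold, beside 7.30% and 6.38%. The set's median was then -0.17 against 0.25 for all genes under the Trpv4-null label, and -0.11 against 0.19 in wild type. Under each of the 5 scalings the set's median lay below that of all genes in both LPS comparisons, by between 0.25 and 0.42 on the log2 scale. A scaling shifts all ratios of a comparison alike, so this gap can move only through the filter and the pseudocount, and its sign is no check of the result. With TMM factors the ratios moved up by 0.58 and 0.52. With median-of-ratios factors the median of the 40S genes was -0.24 and -0.13 and that of the 60S genes -0.15 and -0.07 (Trpv4-null label, wild type), with 26 and 22 of the 31 40S genes and 40 and 30 of the 46 60S genes below 0. Apart from the pseudocount, scaling does not move the differences between genes of the set.

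**Figure D2:**
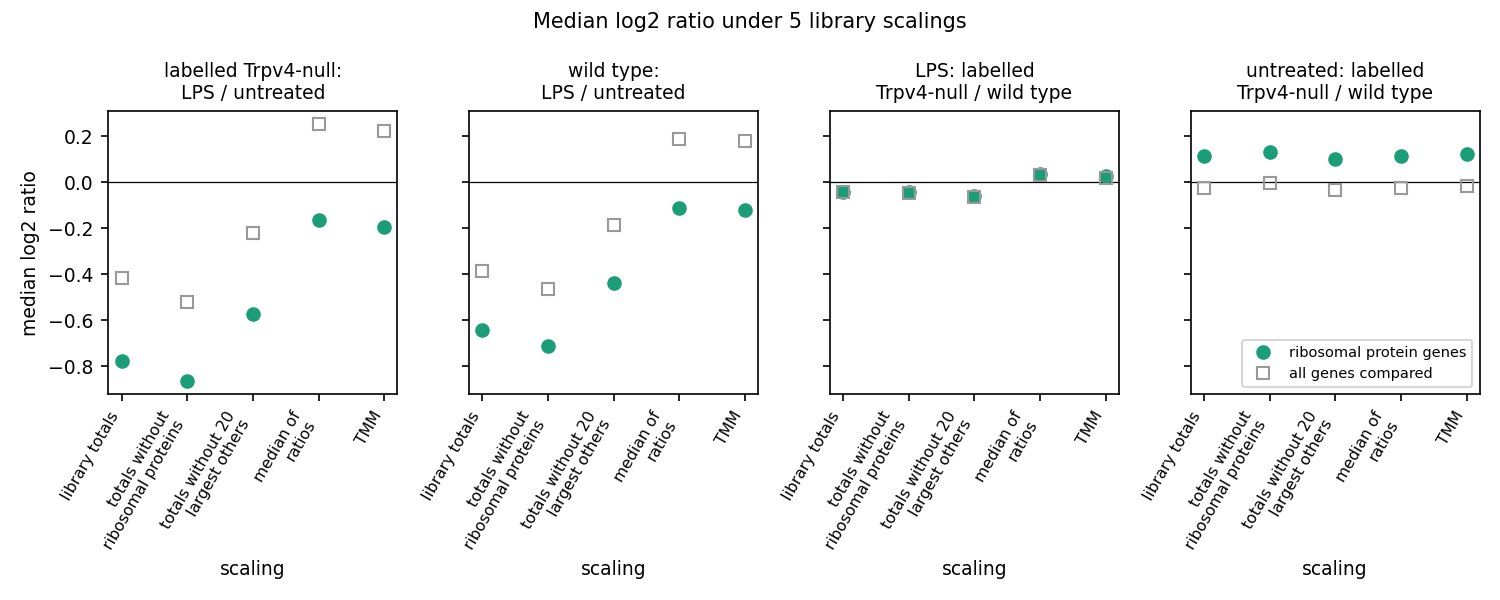
Median log2 ratio of the 83 ribosomal protein genes and of all genes compared in the 4 comparisons, under library totals and the 4 other scalings. In both LPS comparisons the set's median is below that of all genes under each scaling, and with median-of-ratios factors both medians shift up by a like amount, since a scaling moves all ratios of a comparison alike.

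The genes with the lowest ratios were named by rule, 5 for each comparison, and both lists held Rpl10a and Rpl3. Rpl10a, a 60S protein of the L1 stalk that guides spent tRNA out of the ribosome (chr17:28328471-28331033, GRCm38), had 573 CPM with LPS and 1330.2 CPM untreated in Trpv4-null-labelled cells, and 576 CPM with LPS and 1254 CPM untreated in wild-type cells. Its ratio with LPS was 0.43 (0.426 to 0.435) under the Trpv4-null label and 0.459 (0.454 to 0.464) in wild type. Rpl3, a 60S protein near the peptidyl transferase centre (chr15:80077791-80091868), had 579 CPM after LPS against 1375 CPM untreated under the Trpv4-null label and 603 CPM against 1282 CPM in wild type, with log2 ratios of -1.25 and -1.09. For both genes, both libraries with LPS lay below both without it, but they were named for their low ratios, so this adds no support.

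Rps4x, the X-linked form of a 40S protein (chrX:102184941-102189394), had 1083 CPM with LPS and 2305 CPM untreated in Trpv4-null-labelled cells, and 1139.7 CPM with LPS and 2380.1 CPM untreated in wild-type cells, and its log2 ratios were -1.09 and -1.06. Rpsa, the 40S protein once described as a laminin receptor (chr9:120127689-120132369), had 929 CPM after LPS against 2170.5 CPM untreated under the Trpv4-null label and 991 CPM against 1925 CPM in wild type, or log2 -1.22 and -0.96. Rpl10, which completes the 60S subunit late in its assembly, had 575 CPM with LPS and 1279 CPM untreated in Trpv4-null-labelled cells, and 595 CPM with LPS and 1186 CPM untreated in wild-type cells. Rpl13a, known in human cells as part of a complex that represses the translation of inflammatory mRNAs, had 58.6 CPM after LPS against 128 CPM untreated under the Trpv4-null label and 60.8 CPM against 115 CPM in wild type, with log2 ratios of -1.11 and -0.91. Rps14, of the 40S platform, had log2 ratios of -1.07 and -1.05, and Rpl5 had -1.07 and -1.05. All 6 were named for a low ratio in at least 1 LPS comparison, and their log2 ratios lay between -1.22 and -0.91 over both labels.

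Grouped by position in the ribosome, no group stood outside the range of the rest. The P stalk and its base (Rplp0, Rplp1, Rplp2, Rpl12), which recruits elongation factors, had a median log2 ratio of -0.88 under the Trpv4-null label and -0.72 in wild type. Rpl12 had 627 CPM with LPS and 1285 CPM untreated in Trpv4-null-labelled cells, and 544 CPM with LPS and 1117 CPM untreated in wild-type cells. Rplp0 had 1117 CPM after LPS against 2119 CPM untreated under the Trpv4-null label and 1328 CPM against 2196 CPM in wild type. Rpl5 and Rpl11, which with 5S rRNA form a particle that binds the p53 regulator MDM2, had medians of -0.96 and -0.92. The 8 genes of the peptide exit tunnel and its rim had -0.70 and -0.58, with Rpl19 highest at -0.28 and -0.26. Rps2, Rps3 and Rps23, at the mRNA entry and decoding site of the 40S subunit, had medians of -0.88 and -0.65. Every gene of these 4 groups lay below 0 in both LPS comparisons with library totals. So did 81 and 78 of the 83 genes of the set and 70.7% and 71.2% of all genes (Trpv4-null label, wild type), so these counts do not mark the positions. With median-of-ratios factors 7 of the 8 exit tunnel genes did so under the Trpv4-null label and 5 in wild type, where 3 of the 4 P stalk genes did, and the other groups stayed below 0. Beside these stand 67 and 53 of the 83 genes and 36.5% and 38.6% of all genes.

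The 5 genes with the most UMIs over all cells were Rps24, Rps27a, Rplp1, Rpl23 and Rps20, and none was among the most changed. Rps24, a 40S protein mutated in human Diamond-Blackfan anaemia, had 2635 CPM with LPS and 3597 CPM untreated in Trpv4-null-labelled cells, and 2594 CPM with LPS and 3273 CPM untreated in wild-type cells, with log2 ratios of -0.45 and -0.34. Rps27a, made as a fusion to ubiquitin, had 2359 CPM after LPS against 3514 CPM untreated under the Trpv4-null label and 2468 CPM against 3724 CPM in wild type. Rplp1, of the P stalk, had 2279 CPM with LPS and 4074 CPM untreated in Trpv4-null-labelled cells, and 2169 CPM with LPS and 3549 CPM untreated in wild-type cells. Rpl23, of the 60S subunit, had 2172 CPM after LPS against 3556 CPM untreated under the Trpv4-null label and 2275 CPM against 3404 CPM in wild type. Rps20, of the 40S head, had 2249 CPM with LPS and 3056 CPM untreated in Trpv4-null-labelled cells, and 2358 CPM with LPS and 2809.8 CPM untreated in wild-type cells. The libraries with LPS were lower for all 5 genes, at log2 ratios between -0.84 and -0.25. UMI levels are captured molecules and were not compared between genes.

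At the other end, Rpl24 and Rpl41 were the 2 standard genes with a ratio above 0 in wild type with library totals. Rpl24, a 60S protein that in yeast joins the subunit in the last steps of its assembly (chr16:55966275-55971435), had 1365 CPM with LPS and 1411 CPM untreated in Trpv4-null-labelled cells, and 1345 CPM with LPS and 1332 CPM untreated in wild-type cells. Its 4 values lie within 1332 to 1411 CPM, with log2 ratios of -0.05 and 0.01. With median-of-ratios factors these ratios were 0.56 and 0.55, so the small difference holds for library totals only. Rpl41, the shortest ribosomal protein (chr10:128548114-128549305), had 2082 CPM after LPS against 2926 CPM untreated under the Trpv4-null label and 2059 CPM against 2024 CPM in wild type. The untreated Trpv4-null-labelled library was high for Rpl41, and the other 3 lay between 2024 and 2082 CPM. Rpl19 and, in wild type, Rps29 and Rpl38 came next, at log2 ratios of -0.28, -0.55 and -0.64 under the Trpv4-null label and -0.26, -0.22 and -0.23 in wild type.

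The paralogs and Rps19bp1 held most of the upper end. Paralogs of this kind replace or supplement their partner in particular tissues or under stress, and Rps27l is known as a p53 target. Rps27l (chr9:66946086-66949516) had 404 CPM with LPS and 492 CPM untreated in Trpv4-null-labelled cells, and 502 CPM with LPS and 509 CPM untreated in wild-type cells, and the LPS-treated Trpv4-null-labelled library was the low one. Its log2 ratio with LPS was -0.28 under the Trpv4-null label and -0.02 in wild type, where its partner Rps27 had -0.89 and -0.71. Rpl22l1 (chr3:28805436-28807424), whose partner Rpl22 can be lost without loss of ribosomes, had 281 CPM after LPS against 297 CPM untreated under the Trpv4-null label and 294 CPM against 271 CPM in wild type, with the 4 libraries within 271 to 297 CPM. Rpl22 had 542 CPM with LPS and 1028 CPM untreated in Trpv4-null-labelled cells, and 604 CPM with LPS and 964 CPM untreated in wild-type cells.

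Rpl36al (chr12:69182731-69184083) had 180.2 CPM after LPS against 208 CPM untreated under the Trpv4-null label and 209 CPM against 227 CPM in wild type, with log2 ratios of -0.20 and -0.12, and Rpl36a, at 361 CPM after LPS against 723 CPM untreated under the Trpv4-null label and 368 CPM against 576 CPM in wild type, had -0.998 and -0.64. Rpl7l1 (chr17:46773907-46782672), known in human cells as a 60S assembly factor, had 68.7 CPM with LPS and 62.5 CPM untreated in Trpv4-null-labelled cells, and 75.0 CPM with LPS and 66.3 CPM untreated in wild-type cells, or log2 0.13 and 0.18. Rps19bp1 (chr15:80260615-80264315) had 30.9 CPM after LPS against 24.4 CPM untreated under the Trpv4-null label and 33.9 CPM against 28.3 CPM in wild type, or log2 0.33 and 0.25. These 2 were the genes of the set above 0 under the Trpv4-null label. The retrogene Rps27rt (chr9:114982366-114982739), by its name a retrogene copy of Rps27, had 41.3 CPM with LPS and 78.0 CPM untreated in Trpv4-null-labelled cells, and 45.0 CPM with LPS and 82.0 CPM untreated in wild-type cells. Its log2 ratios, -0.90 and -0.85, lay beside those of Rps27, and reads of the 2 genes may be shared, so its counts are uncertain. Rps27 itself had 499 CPM with LPS and 925 CPM untreated in Trpv4-null-labelled cells, and 531 CPM with LPS and 868 CPM untreated in wild-type cells.

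Set against their partners in the same library, 4 of the 5 paralogs that passed the filter gave more UMIs per UMI of the partner with LPS. The partners were themselves lower with LPS, with log2 ratios of -0.89 and -0.71 for Rps27 and -0.97 and -0.93 for Rpl7 (Trpv4-null label, wild type). The medians of all genes were -0.42 and -0.39, so a gene at that median would also give more UMIs per UMI of these partners. The share of all genes that did so was not counted. For every 100 UMIs of Rps27 there were, of Rps27l, 81.0 after LPS against 53.2 untreated in Trpv4-null-labelled cells, and 94.5 after LPS against 58.7 untreated in wild-type cells. For Rpl36al per 100 UMIs of Rpl36a the values were 49.9 after LPS against 28.7 untreated in Trpv4-null-labelled cells, and 56.7 after LPS against 39.4 untreated in wild-type cells. For Rpl22l1 per 100 UMIs of Rpl22 they were 51.9 after LPS against 28.9 untreated in Trpv4-null-labelled cells, and 48.6 after LPS against 28.2 untreated in wild-type cells. Rpl7l1 per 100 UMIs of Rpl7 gave 9.23 after LPS against 4.30 untreated in Trpv4-null-labelled cells, and 10.0 after LPS against 4.64 untreated in wild-type cells. Rps27rt per 100 UMIs of Rps27 gave 8.29 after LPS against 8.44 untreated in Trpv4-null-labelled cells, and 8.46 after LPS against 9.44 untreated in wild-type cells. Each value is read across libraries for 1 pair only, and library scaling does not enter it. In the first 4 pairs both libraries with LPS lay above both without it, and for Rps27rt they did not. Rpl39l, which is under the filter, gave 0.157 after LPS against 0.0634 untreated in Trpv4-null-labelled cells, and 0.482 after LPS against 0.139 untreated in wild-type cells, per 100 UMIs of Rpl39, so the libraries with LPS were the higher ones there too.

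**Figure D3:**
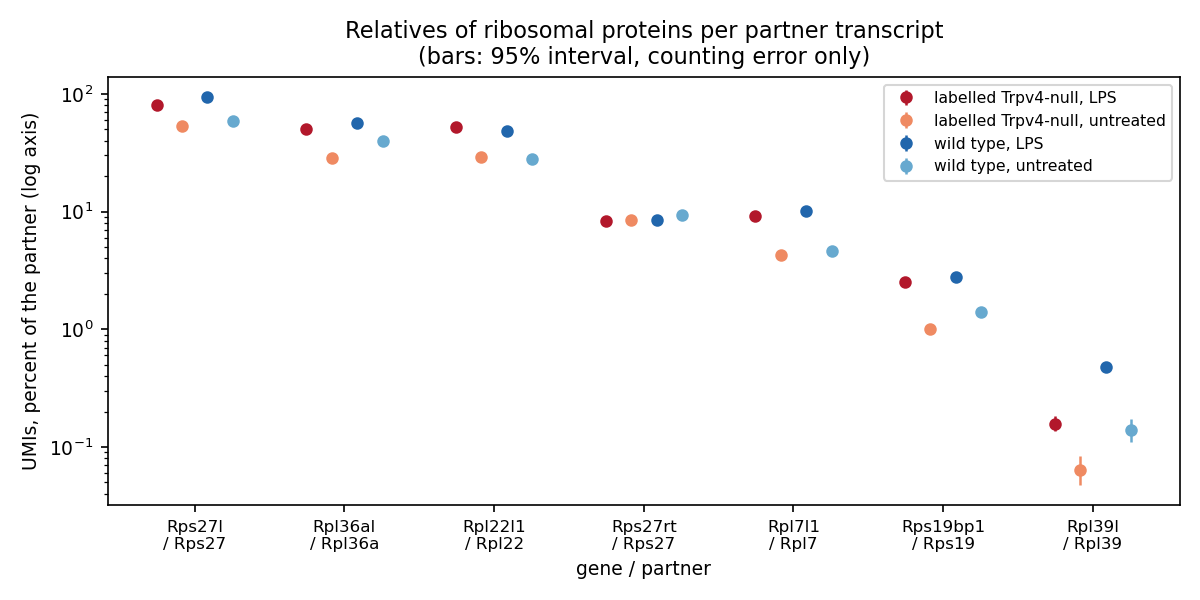
UMIs of each paralog, and of Rps19bp1, per 100 UMIs of its partner in the same library, on a log axis, for the 4 libraries, with counting intervals. With LPS, the values of Rps27l, Rpl36al, Rpl22l1 and Rpl7l1 are above the untreated ones under both labels, and those of Rps27rt stay between 8.29 and 9.44.

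Both genes under the filter are paralogs known from other tissues. Rpl39l, a form found in male germ cells, had 1.70 CPM with LPS and 1.06 CPM untreated under the Trpv4-null label, and 5.20 and 1.88 CPM in wild type, from 185, 50, 749 and 82 UMIs. The LPS-treated wild-type library was the high one. Rpl3l, a form of heart and skeletal muscle, had 22 UMIs with LPS and 12 untreated under the Trpv4-null label, and 19 and 0 in wild type, too few to compare.

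The change was present in each group of cells that the authors had named. They gave 9 cluster names to the cells, and 8 clusters had at least 100 cells in every library. The summed log2 ratio with LPS lay between -1.06 and -0.65 over the 8 clusters under the Trpv4-null label, and between -0.89 and -0.53 in wild type. Clusters are not replicates, since all come from the same libraries. In the cluster named Macrophage, the largest, the median share per cell was 8.13% with LPS against 13.0% untreated under the Trpv4-null label, and 8.28% against 12.0% in wild type. In the cluster Ifit1bl1+_Cmpk2+, named for interferon-induced genes, it was 6.56% with LPS against 13.4% untreated under the Trpv4-null label, and 6.64% against 12.1% in wild type, and its log2 ratios of -1.06 and -0.89 were the lowest of the 8 under both labels. The cluster Tmem176+ had the highest share in each of the 4 libraries, 9.10% with LPS against 16.4% untreated under the Trpv4-null label, and 9.12% against 15.0% in wild type. In Proliferating cells it was 8.21% with LPS against 12.9% untreated under the Trpv4-null label, and 8.36% against 12.4% in wild type, with log2 ratios of -0.65 and -0.55.

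**Figure D4:**
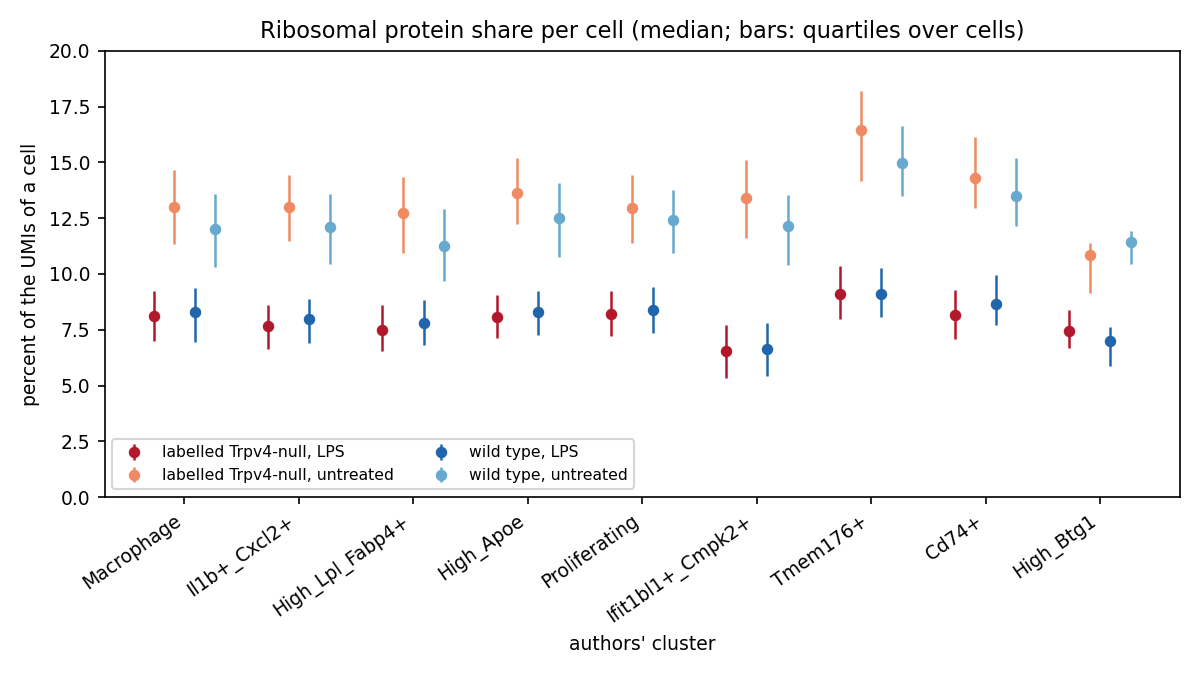
Percent of a cell's UMIs from the 85 ribosomal protein genes, by authors' cluster and library. Points are medians over cells and bars the quartiles. In all 9 clusters both libraries with LPS lie below both without it. High_Btg1 has the fewest cells, with only 3 untreated under the Trpv4-null label and 5 untreated in wild type. The medians run between 6.56% with LPS in Ifit1bl1+_Cmpk2+ cells and 16.4% untreated in Tmem176+ cells.

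Genes that stood apart from the set were also read within clusters. They had been picked from the library sums, of which the clusters are parts, so their side of the set's median in clusters is no separate support. Rpl24 lay above the set's median in all 8 clusters under both labels, with log2 ratios of -0.26 to 0.10 under the Trpv4-null label and -0.12 to 0.16 in wild type. Rpl22l1 did the same, with -0.13 to 0.01 and -0.25 to 0.33, and so did Rps27l, with -0.53 to -0.05 and -0.24 to 0.30. Rpl10a lay below the set's median in all 8, with -1.62 to -1.03 and -1.64 to -0.97, and Rpl3 with -1.81 to -1.06 and -1.52 to -0.94. Over the 32 combinations of cluster and library, the log2 share of a standard gene within the set had a standard deviation of 0.118 for the median gene. It was smallest for Rpl23 (0.0488) and largest for Rpl24 (0.354).

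Between the genotype labels the set differed much less than with LPS. Untreated, it gave 13.5% of UMIs in Trpv4-null-labelled cells and 12.5% in wild-type cells, a ratio of 1.083 (1.082 to 1.085). With LPS it gave 8.00% and 8.20%, a ratio of 0.976 (0.975 to 0.977). Untreated, 70 of 83 genes lay above 0, beside 42.4% of all 6156 genes compared, and 13 below 0, beside 57.6%, with a median log2 ratio of 0.11 against -0.02 for all genes. With LPS, 57 of 83 lay below 0, beside 62.6% of all 5236 genes, and 26 above 0, beside 37.4%, with a median of -0.04 against -0.04 for all genes, so the set sat where all genes did. In each of the 8 clusters the summed ratio was above 0 untreated, 0.06 to 0.15 on the log2 scale, and below 0 with LPS, -0.089 to -0.0080. With median-of-ratios factors the summed value untreated was 0.12 and the value with LPS turned to 0.043. With no second library per group, the spread between cultures of 1 genotype is not known, and these values cannot be set against it.

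No gene of the set differed by 2-fold between the labels, where 0.146% of all genes were higher and 0.146% lower untreated, and 0.134% higher and 0.0573% lower with LPS. A level higher by 1.2-fold or more in untreated Trpv4-null-labelled cells was seen for 8 of 83 genes (9.64%), beside 4.74% of all genes. They were Rpl21, Rpl36, Rpl36a, Rpl38, Rpl39, Rpl41, Rps28 and Rps29. None was lower by 1.2-fold, beside 5.2% of all genes. Rpl41 had 2926 CPM in the untreated Trpv4-null-labelled library and 2024 CPM in the untreated wild-type library, a ratio of 1.45 (1.43 to 1.46). Rpl21, a 60S protein, had 1180.1 CPM in the untreated Trpv4-null-labelled library and 874 CPM in the untreated wild-type library, or log2 0.43. Rps28, at the mRNA exit of the 40S subunit, had 1094 CPM in the untreated Trpv4-null-labelled library and 846 CPM in the untreated wild-type library, or log2 0.37. Rpl38, known for its effect on the translation of Hox mRNAs in mouse embryos, had 878 CPM in the untreated Trpv4-null-labelled library and 694 CPM in the untreated wild-type library, and Rps29, a zinc-binding 40S protein, had 2092 CPM in the untreated Trpv4-null-labelled library and 1665 CPM in the untreated wild-type library. The lowest were Rps19bp1, Rpl27, Rpl36al, Rps9 and Rps3a1, at -0.21, -0.13, -0.13, -0.11 and -0.10.

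With LPS, 1 gene was lower by 1.2-fold or more under the Trpv4-null label, beside 5.21% of all genes, and none was higher, beside 4.32%. It was Rps27l, with 404 CPM in the LPS-treated Trpv4-null-labelled library and 502 CPM in the LPS-treated wild-type library, a ratio of 0.804 (0.795 to 0.814). Rplp0, the P stalk protein that joins it to the 60S subunit, had 1117 CPM in the LPS-treated Trpv4-null-labelled library and 1328 CPM in the LPS-treated wild-type library, and Rps2 had 955 CPM in the LPS-treated Trpv4-null-labelled library and 1117 CPM in the LPS-treated wild-type library. Rpl36al and Rpl35a followed at log2 -0.21 and -0.19. At the upper end Rpl12 had 627 CPM in the LPS-treated Trpv4-null-labelled library and 544 CPM in the LPS-treated wild-type library, and Rpl17, Rpl21, Rpl7a and Rpl26 had log2 ratios of 0.20, 0.19, 0.13 and 0.08. Rpl12, Rpl17, Rpl21, Rpl7a and Rpl26 were higher under the Trpv4-null label in both treatments. Of the genes named at the lower end, Rps27l, Rplp0 and Rpl36al were lower in both, and Rps2 and Rpl35a were not. The 2 genotype comparisons share no library, and 39 of the 83 genes (47.0%) lay on the same side of 0 in both, beside 63.8% of 4921 genes. The Pearson correlation of the log2 ratios was 0.446 over the 83 genes and 0.277 over all genes, a description.

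The LPS ratio was lower under the Trpv4-null label than in wild type for 77 of 83 genes, beside 58.8% of 6201 genes. The summed log2 ratios differed by -0.151 (-0.153 to -0.149), and the median difference per gene was -0.16 against -0.03 for all genes. The summed difference was -0.091 with TMM factors and -0.074 with median-of-ratios factors, under which 54 of 83 genes had the lower ratio under the Trpv4-null label, beside 38.1% of 6024 genes. The widest differences with library totals were those of Rpl41 at -0.52, Rps28 at -0.47 and Rpl38 at -0.41. The same 3 genes were high in the untreated Trpv4-null-labelled library, which enters this difference too, so the 2 statements are not independent. Whether the difference goes beyond the spread between cultures was not tested.

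Coding length went with part of this pattern. Of the standard genes, 9 have a coding sequence of at most 300 nt, and their median log2 ratio of Trpv4-null-labelled over wild-type cells was 0.31 untreated, between 0.09 and 0.53. The 22 genes longer than 600 nt had a median of 0.08. Other genes of at most 300 nt had a median of -0.02, the same as other genes longer than 600 nt. Over the 77 standard genes, Spearman's rho between coding length and this ratio was -0.54 and Pearson's r with log2 length -0.59, given as a description across genes that share their libraries. The LPS ratio in wild type, which uses the same untreated wild-type library, was -0.40 for the short and -0.83 for the long genes at the median, with rho -0.55. Other genes differed by length in the same direction there, with medians of 0.10 for those of at most 300 nt and -0.44 for those longer than 600 nt, and rho -0.28. Under the Trpv4-null label the medians of the standard genes were -0.72 and -0.92, with rho -0.30, and those of other genes 0.02 and -0.47, with rho -0.29, so a lower ratio in longer genes with LPS was not confined to the set. Between the labels with LPS the medians of the standard genes were -0.07 and -0.05, with rho 0.05. Both comparisons with the strongest relation use the untreated wild-type library, the one with the fewest UMIs per cell, and the part of depth in it was not tested.

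**Figure D5:**
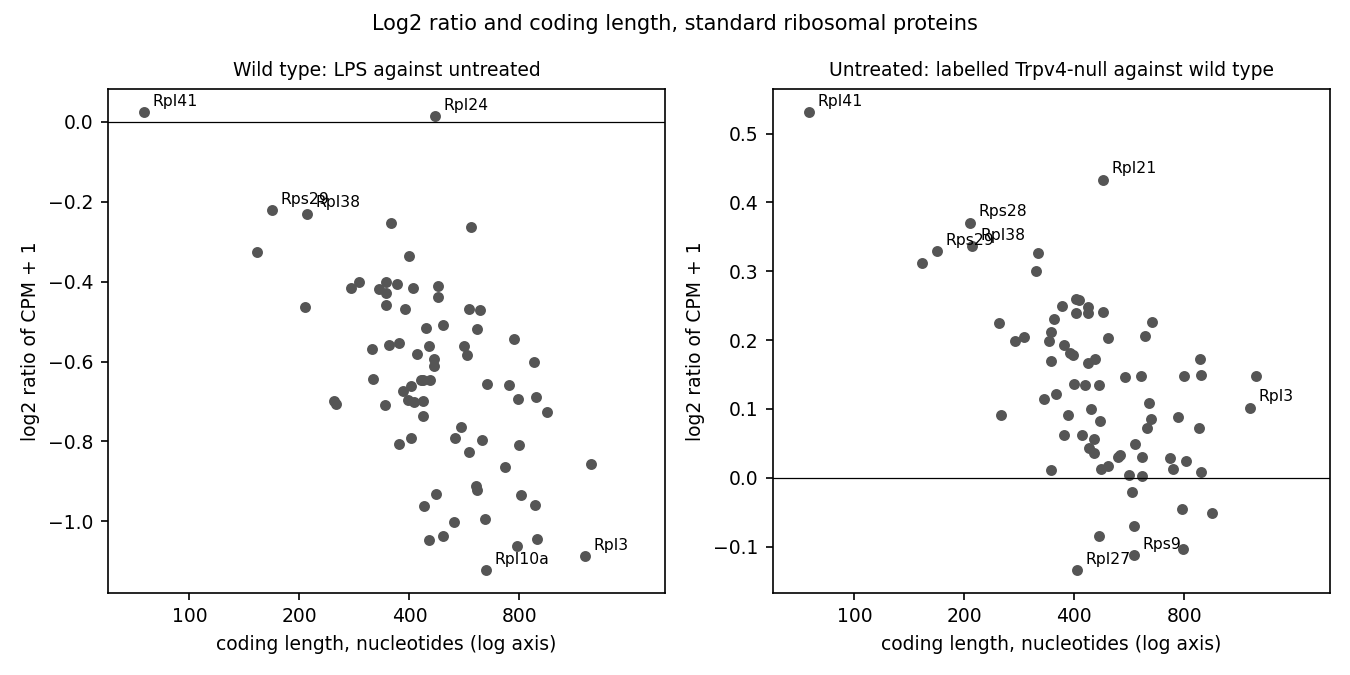
Log2 ratio against coding length (nt, log axis) of the 77 standard ribosomal protein genes, for LPS in wild type and for the untreated genotype labels. Short genes lie higher in both panels, led by Rpl41, and the medians of the 9 genes of at most 300 nt are -0.40 and 0.31, against -0.83 and 0.08 for the 22 genes longer than 600 nt.

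Standard genes with and without a pyrimidine run had medians close to each other with LPS. The 48 standard genes with a run within 50 bases of the start had median log2 ratios of -0.81 under the Trpv4-null label and -0.65 in wild type, and the 9 without one -0.88 and -0.69. Rps18, whose run is shown above, had 977 CPM with LPS and 1894 CPM untreated in Trpv4-null-labelled cells, and 1073 CPM with LPS and 1680.0 CPM untreated in wild-type cells, and Rpl15 had 882 CPM after LPS against 1272 CPM untreated under the Trpv4-null label and 887 CPM against 1269.8 CPM in wild type. Rps10, another of the genes shown, had 1471 CPM with LPS and 2245 CPM untreated in Trpv4-null-labelled cells, and 1558 CPM with LPS and 2217 CPM untreated in wild-type cells, and Rpl27a had 1383 CPM after LPS against 2251 CPM untreated under the Trpv4-null label and 1469 CPM against 2099.5 CPM in wild type. A listed start is an annotation, and the start used in these cells was not measured.

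Other parts of the translation machinery were read from lists of known genes, by the same ratios with LPS. Fau and Rack1, outside the set by their symbols, were lower too with library totals. Fau, which makes a ubiquitin-like fusion of RPS30, had 2258 CPM with LPS and 3551 CPM untreated in Trpv4-null-labelled cells, and 2237 CPM with LPS and 3214 CPM untreated in wild-type cells. Rack1, a scaffold on the 40S head, had 609 CPM after LPS against 1242 CPM untreated under the Trpv4-null label and 638 CPM against 1236 CPM in wild type. The elongation list held elongation factors, whose mRNAs also carry TOP motifs, and Tpt1, which is not an elongation factor. It had 6 of 7 compared genes below 0 under the Trpv4-null label (median log2 ratio -0.78) and 6 of 7 in wild type (-0.73). Tpt1 was at log2 -0.89 and -1.05. Eef2, which moves the ribosome along the mRNA, had 390.2 CPM after LPS against 931 CPM untreated under the Trpv4-null label and 412 CPM against 853 CPM in wild type, and Eif5a, which helps at stalling peptides, was the one above 0, at log2 0.99 and 0.92.

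Initiation factors had 24 of 34 compared genes below 0 under the Trpv4-null label (median log2 ratio -0.25) and 24 of 35 in wild type (-0.23). They went in both directions, with Eif4e, the cap-binding protein, at log2 1.62 and 1.35 and Eif4b, a helicase partner whose mRNA carries a TOP motif, at -1.61 and -1.43. Regulators of TOP mRNAs had 13 of 16 compared genes below 0 under the Trpv4-null label (median log2 ratio -0.56) and 13 of 16 in wild type (-0.38). Larp1 had 133 CPM with LPS and 59.6 CPM untreated in Trpv4-null-labelled cells, and 136 CPM with LPS and 64.6 CPM untreated in wild-type cells, while Eif4ebp2, a repressor of eIF4E, was at log2 -2.01 and -1.74 and Tsc1, an inhibitor of mTOR signalling, at -1.59 and -1.27.

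Ribosome assembly genes had 13 of 22 compared genes below 0 under the Trpv4-null label (median log2 ratio -0.11) and 14 of 24 in wild type (-0.11). Npm1, a nucleolar chaperone, had 246 CPM after LPS against 598 CPM untreated under the Trpv4-null label and 318 CPM against 654 CPM in wild type, Ncl, or nucleolin, had log2 ratios of -0.96 and -0.81, and Fbl, the rRNA methyltransferase fibrillarin, -0.10 and 0.0042. Subunits and factors of RNA polymerase I, which makes rRNA, had 7 of 7 compared genes below 0 under the Trpv4-null label (median log2 ratio -0.56) and 7 of 7 in wild type (-0.54). Proteins of the mitochondrial ribosome, a separate particle, had 28 of 68 compared genes below 0 under the Trpv4-null label (median log2 ratio 0.15) and 22 of 67 in wild type (0.19), so most of that list lay on the other side of 0 from the cytosolic set. The transcripts of the mitochondrial genome had 13 of 13 compared genes below 0 under the Trpv4-null label (median log2 ratio -1.10) and 13 of 13 in wild type (-1.06). Beside each of these lists stand 70.7% and 71.2% of all genes below 0, and the medians of all genes, -0.42 and -0.39.

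Median-of-ratios factors moved several of these lists across 0. The medians were then 0.37 and 0.28 for initiation factors, 0.03 and 0.21 for regulators of TOP mRNAs and 0.51 and 0.52 for assembly genes (Trpv4-null label, wild type), above 0 where library totals gave values below it. Those of the elongation list, -0.17 and -0.20, and of the mitochondrial genome, -0.49 and -0.53, stayed below 0, as did the medians of both cytosolic subunits. For RNA polymerase I the median was 0.12 under the Trpv4-null label and within 0.01 of 0 in wild type, and for the mitochondrial ribosome 0.74 and 0.72. Rack1 was then below 0 under both labels, and Fau under the Trpv4-null label but not in wild type.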

How the data were processed

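The 4 libraries are those of the 10x Genomics droplet platform, per the labels, with 1 library per group. The authors deposited whole-number UMI counts per gene and cell, not normalized, with a table that holds, per the file headers, each cell's library, cluster name and mitochondrial UMI fraction. Cell Ranger 3.1.0, Seurat 4, R 4.2 and the build mm10 appear in the submitters' processing notes. Not given in the sources used here are cell filters, doublet treatment and the use of strand, so overlapping or near-identical genes may share counts.

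UMIs were summed per library and scaled to CPM, UMIs per 1000000 of the library. Totals were 109030958 and 47000669 UMIs for Trpv4-null-labelled cells with LPS and untreated, and 144090985 and 43731003 for wild-type cells with LPS and untreated. A log2 ratio is that of CPM plus 1, taken where the higher library had at least 20 CPM and 30 UMIs. CPM values and ratios carry exact 95% intervals for counting error alone, and shares of the set were also taken per cell. With 1 library per group, no test was made. Genes named are the 5 highest and the 5 lowest ratios in each comparison, the 5 with the most UMIs, the paralogs with their partners, the genes under the filter, those with the widest difference between LPS ratios, and examples of each position group and list. The last 2 kinds, and Rpl24, Rps18, Rpl15, Rps10 and Rpl27a for their promoters, were chosen after their values were seen. The set and the gene lists were chosen with earlier results of these data known.

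Positions and coding lengths came from GENCODE M21, built on GRCm38 (mm10), in which all 85 symbols were found, and promoter windows from RefSeq on GRCm38.p6. Sums and ratios were made in Python 3.11.15 (pandas 2.3.3, numpy 2.4.6, scipy 1.17.1), figures with matplotlib 3.10.9, and only the TMM factors with edgeR 4.0.16 in R 4.3.3. The ratio step was tested on simulated data. Alternatives were other scalings, equal weight for clusters, cells without the proliferating cluster, cells thinned to 3000 UMIs, a pseudocount of 0.1 CPM, no minimum, and cells of 10000 to 20000 UMIs.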

Additional observations from a re-analysis of the deposited data

Results flagged for a closer look

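With library totals, 3 genes had an LPS ratio below 0 under the Trpv4-null label and above 0 in wild type. The other 80 of the 83 genes (96.4%) lay on the same side of 0 under both labels, beside 95.2% of all 6201 genes. Opposite sides were thus not more common in the set than among all genes. For Rpl41 the log2 ratio was -0.49 under the Trpv4-null label and 0.03 in wild type, a difference of -0.52. For Rpl22l1 it was -0.08 and 0.11, a difference of -0.19. For Rpl24 it was -0.05 and 0.01, a difference of -0.061. None of the 3 differences was tested, since each group is 1 library. With median-of-ratios factors the ratios of all 3 lay above 0 under both labels, at 0.12 under the Trpv4-null label and 0.56 in wild type for Rpl41, 0.53 and 0.64 for Rpl22l1, and 0.56 and 0.55 for Rpl24. In cells of 10000 to 20000 UMIs they lay below 0 under both labels, at -0.55 under the Trpv4-null label and -0.03 in wild type for Rpl41, -0.29 and -0.19 for Rpl22l1, and -0.13 and -0.12 for Rpl24. With totals without the ribosomal protein genes the wild-type ratios of Rpl41 and Rpl24 turned to -0.04 and -0.06, and with cells thinned to 3000 UMIs that of Rpl24 turned to -0.03.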

How the results depend on the processing

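The per-cell shares moved by less than their spread over cells under every alternative that was run. The summed log2 ratio with LPS stayed below 0 under both labels, and its size moved with the scaling. Under the Trpv4-null label it was -0.15 with median-of-ratios factors, -0.18 with TMM factors, -0.85 with library totals without the ribosomal protein genes, -0.56 without the 20 largest other genes, -0.79 with clusters weighted equally, -0.77 without the proliferating cluster, -0.76 with cells thinned to 3000 UMIs and -0.83 in cells of 10000 to 20000 UMIs, an alternative chosen after seeing the data. In wild type these values were, in the same order, -0.075, -0.084, -0.68, -0.40, -0.63, -0.61, -0.63 and -0.70. The difference between both was -0.074, -0.091, -0.17, -0.15, -0.16, -0.16, -0.14 and -0.13.

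Between the labels with LPS, the summed value turned to 0.043 with median-of-ratios and 0.031 with TMM factors, and the cause was not tested. In the order above, the other 6 alternatives gave -0.039, -0.052, -0.038, -0.039, -0.026 and -0.023. Untreated, they gave 0.13, 0.10, 0.12, 0.12, 0.11 and 0.10, and TMM factors 0.12. Genes lower by 2-fold or more with LPS numbered 0 under both labels with median-of-ratios factors, beside 7.30% and 6.38% of all genes, and with TMM factors, beside 7.52% and 6.39% of all genes (Trpv4-null label, wild type). They were 25 and 11 with totals without the ribosomal protein genes, beside 25.02% and 20.5% of all genes, 3 and 0 without the 20 largest other genes, beside 15.6% and 12.2% of all genes, and 23 and 13 in cells of 10000 to 20000 UMIs, beside 18.5% and 14.2% of all genes. As shares of the set, 25 is 30.1% and 23 is 27.7%, both above the share of all genes. With no minimum, 1 gene, Rpl39l, differed by 2-fold between the labels with LPS. For 37 named genes, 239 of 1260 single values moved, that is, by more than 0.1 on the log2 scale. Of 140 values each, 70 moved with median-of-ratios factors, with TMM factors and without the 20 largest other genes, where a scaling moves all ratios alike. In cells of 10000 to 20000 UMIs 29 moved. No ratio of 2-fold or more changed sign, but the scalings, with shifts of at most 0.61, could not have changed one.

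No paired analysis was possible because each group is 1 library, so leaving out a replicate was not possible either. The counts limit little, since the intervals are narrow, but they do not cover the spread between mice or cultures. Thinning left out 93 and 209 cells with LPS and untreated under the Trpv4-null label, and 122 and 666 in wild type.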
